A study of Nasonia vitripennis with 6 samples.

Results

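The comparison described here set embryos in which the Toll pathway was knocked down directly against embryos in which BMP signaling was knocked down, in the parasitoid wasp Nasonia vitripennis. It used 4 of the 6 RNA-seq libraries of the series, chosen by their labelled treatment: 2 libraries of Toll pRNAi and 2 of BMP pRNAi. The remaining 2 libraries, from water-injected mothers, entered the shared estimate of the spread and are given where their values help to place the others. In parental RNA interference (pRNAi), double-stranded RNA (dsRNA) is injected into female yellow pupae and the embryos they later lay are collected. All pools held whole embryos of 4 to 7 h after egg lay, labelled late blastoderm, and about 2 μg of dsRNA was injected. Both Toll pRNAi libraries, titled TollA2610 and TollA1611, targeted Nv-TollA, with dsRNAs made from parts of the gene that do not overlap. The BMP pRNAi libraries targeted different ligand genes, dpp in 1 library and gbb1 in the other, so the spread within that group includes the difference between these targets. The table of values numbers the libraries of a group without naming them, so TollA2610 is told from TollA1611, and dpp from gbb1, only by the order of the alignment files in the authors' command. Results for whole knockdowns do not depend on that order. Each library came from a separate pool of whole embryos collected over a week, in which fewer cells of a type and less RNA per cell cannot be told apart.

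Along the dorsoventral (DV) axis of insect embryos, Toll signaling brings the transcription factor Dorsal into the nuclei of the ventral side, where it turns on mesodermal genes. BMP ligands of the Dpp and Gbb type signal through serine/threonine kinase receptors and Mad proteins and specify dorsal fates, in Nasonia including the serosa, an extraembryonic membrane. Loss of Toll removes ventral fates and loss of BMP removes dorsal ones, so the 2 knockdowns move fates in opposite directions. A direct comparison of them therefore asks which transcripts differ between dorsalized and ventralized embryos, without use of the water pools as the reference. A difference alone does not show dependence on position along the axis. The dsRNA target itself and genes patterned along the other axis can also differ.

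The libraries held 22754267 (TollA2610) to 30590172 (gbb1) fragments assigned to loci. The Toll pRNAi libraries differed less from each other than the BMP pRNAi libraries did, with a chi-square per degree of freedom over loci of 4.67 between the Toll pRNAi libraries, 38.7 between the BMP pRNAi libraries and 15.2 between the water libraries. Fold changes below are from edgeR's quasi-likelihood test on fragments, as log2 of Toll pRNAi over BMP pRNAi with its standard error (SE), and adjusted p-values are Benjamini-Hochberg values over the 10241 loci tested. Levels are FPKM (fragments per kilobase of transcript, scaled to library size), which allow genes to be compared per length.

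The first question was how many transcripts separated dorsalized from ventralized embryos. Of 10241 loci, 706 (6.89%) passed an adjusted p of 0.05, 597 (5.83%) higher and 109 (1.06%) lower after Toll pRNAi. The median size of the change was 0.68 on the log2 scale for the higher loci, and 189 of them (31.7%) changed more than 2-fold. Among the lower loci the median size was 1.08, and 57 of 109 (52.3%) changed more than 2-fold. More than 4-fold were 58 of the higher and 25 of the lower loci. All 706 had libraries that did not overlap between the knockdowns. Over all loci tested, however, both Toll pRNAi libraries stood above both BMP pRNAi libraries in 29.1% and below them in 28.6%, by counts scaled to library size (CPM), so most loci without overlap did not pass the test. In a fit of the 4 knockdown libraries alone, without the water libraries, 401 loci were higher and 73 lower. Counts of called loci also moved with single libraries. Without the gbb1 library, 1231 loci were higher and 814 lower. With 1 Toll pRNAi library left out, 180 loci were higher and 37 lower (without TollA2610) or 214 higher and 41 lower (without TollA1611). Without the dpp library 398 were higher and 86 lower, without the water library h2o1704 389 were higher and 75 lower, and without h2o805 382 were higher and 73 lower.

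**Figure D1:**
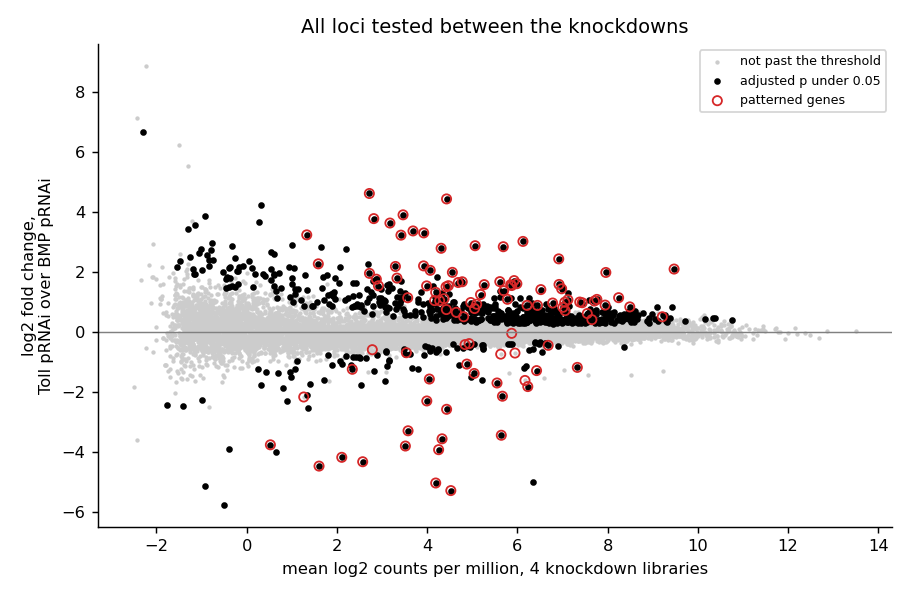
Mean level (log2 CPM, averaged over the 4 knockdown libraries) against the log2 fold change of Toll pRNAi over BMP pRNAi for the 10241 loci tested, each point a locus. Black points passed the threshold (597 above the zero line, 109 below it), and red circles mark the 102 patterned genes that could be paired with a locus.

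The dsRNA targets were examined first. Nv-TollA (Nasvi2EG005329, scaffold 8, positions 740147 to 745386 of assembly 1.0), the Toll receptor gene that was targeted, had 4.92 and 1.23 FPKM in the Toll pRNAi libraries TollA2610 and TollA1611, against 110.0 and 101 FPKM in the dpp and gbb1 libraries and 101 and 128 FPKM in water. Its level was thus low in both Toll pRNAi libraries, with more left in TollA2610, and near that of water in both BMP libraries. The fold change was -4.99 (SE 0.49, adjusted p = 0.000674). Nv-dpp (Nasvi2EG000703, scaffold 1, positions 5536920 to 5544265), the ligand gene targeted in 1 of the BMP pRNAi libraries, had 18.0 and 18.7 FPKM in the Toll pRNAi libraries, against 7.03 FPKM in the dpp library and 12.7 FPKM in the gbb1 library. It was lowest in the library in which it was the target, and both BMP libraries lay below both Toll libraries. Its fold change of 0.83 (SE 0.17, adjusted p = 0.0234) covers both BMP libraries and is not a measure of the dpp knockdown. That call was lost without TollA1611 (0.71, adjusted p = 0.17), without TollA2610 (0.94, adjusted p = 0.0751) and without the water library h2o805 (adjusted p = 0.0514). The other ligand targeted, gbb1, was not analysed here.

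Genes with a known expression pattern were taken from the list of 110 genes that the study followed by in situ hybridization. The study chose these genes because they changed in these same libraries, 16 of them in this comparison alone with higher levels after Toll pRNAi and 6 with higher levels after BMP pRNAi. Their counts are therefore a description and not independent evidence of a direction. Loci carry gene identifiers only through the part of a study table used here, which begins with loci that passed the study's own tests, and of the 504 loci paired in this way and tested 198 were called. Of the 110, 102 were paired with a locus, and all 102 passed the filter on low counts. The loci of 16 patterned genes hold more than 1 gene identifier, which the fragment counts do not separate. Named below with 2 identifiers are Nv-stumps, Nv-vvl, Nv-blistery, Nv-traf4, Nv-disco, slit, Nv-CG42249 and Nasvi2EG019917. The loci of netrin and CG42346 hold 3 identifiers and that of sox-neuro holds 4. After Toll pRNAi 67 of the 102 were higher and 23 lower, and 12 did not pass the test. The median fold change of the 102 genes was 1.02, beside -0.0045 over all loci tested.

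**Figure D2:**
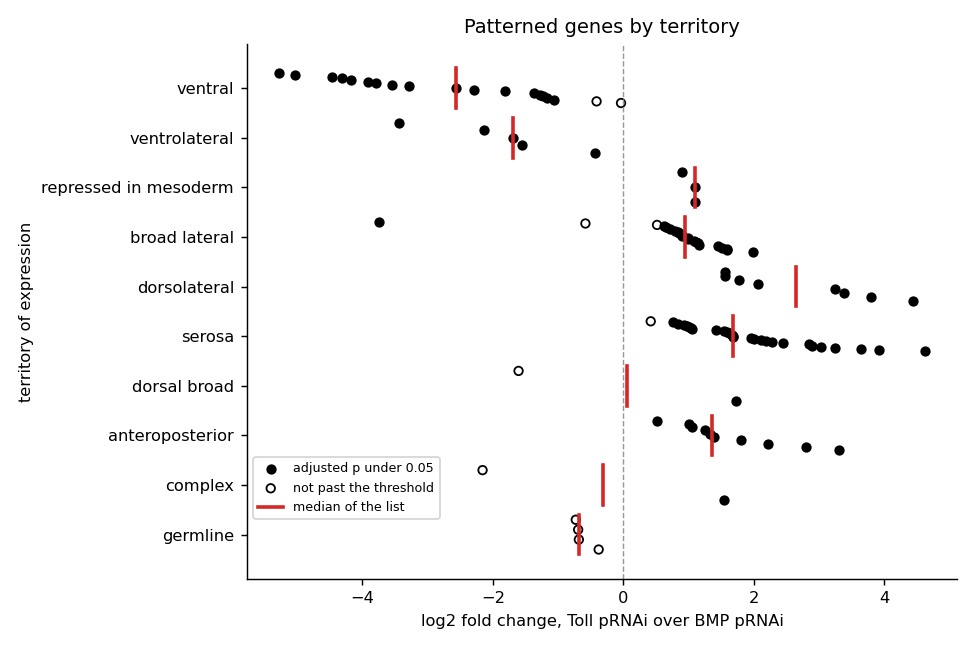
Log2 fold change of Toll pRNAi over BMP pRNAi for each of the 102 paired genes, by the territory that the study's list gives the gene. Territories are ordered from ventral to dorsal and then the other patterns. Filled points passed an adjusted p of 0.05, open points did not, and red lines are medians, which lie at -2.57 for ventral, 0.94 for broad lateral, 1.69 for serosa and 2.65 for dorsolateral genes.

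Ventral genes, most of them expressed in the presumptive mesoderm, were lower after Toll pRNAi. The study's text places some elsewhere, with Nv-TollC and Nv-cg2254 at the edges of the mesoderm and Nv-croc in anterior and posterior ventral domains. Of 21 listed genes 19 were paired and tested, 17 were lower and 2 did not pass, and the median fold change was -2.57. Nv-twi (Nasvi2EG000292, scaffold 1, positions 2144511 to 2146437), the bHLH transcription factor that specifies mesoderm in flies, had 2.93 and 1.33 FPKM after Toll pRNAi, against 79.0 and 87.8 FPKM in the dpp and gbb1 libraries. Water lay between them, at 40.3 and 37.0 FPKM. With 38.8-fold, or -5.28 (SE 0.26, adjusted p = 1.39e-05), this was the largest change of any patterned gene. Nv-sna, a zinc-finger repressor of the mesoderm, had 11.2 and 9.20 FPKM in the Toll pRNAi libraries and 30.9 and 42.6 FPKM in the BMP pRNAi libraries. No library of one knockdown reached the other, yet the change of -1.81 (SE 0.13, adjusted p = 0.000124) was far smaller than that of Nv-twi.

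Nv-TollC (Nasvi2EG005298, scaffold 8, positions 462480 to 467154), a second Toll receptor gene, was at 0.919 and 0.398 FPKM after Toll pRNAi and at 20.5 and 23.2 FPKM after BMP pRNAi. The fold change of -5.02 (SE 0.26, adjusted p = 1.94e-05) was close in size to that of Nv-TollA, the gene that the dsRNAs targeted. Nv-six4, a homeobox gene of the mesoderm, had 0.267 and 0.164 FPKM in the Toll pRNAi libraries against 5.83 and 5.15 FPKM in the BMP pRNAi libraries (-4.46, SE 0.19, adjusted p = 5.89e-06). CG42346, a homologue of a fly membrane protein gene, had 0.171 and 0.372 FPKM after Toll pRNAi against 5.21 and 5.75 FPKM after BMP pRNAi (-4.32, SE 0.17, adjusted p = 4.73e-06). Its locus joins 3 gene identifiers, which the fragment counts do not separate. All of these genes were nearly absent in both Toll pRNAi libraries.

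The fibroblast growth factor (FGF) pathway guides the spreading of the mesoderm in flies. Both of its members that could be paired, which are also patterned genes chosen by the study on these libraries, were lower after Toll pRNAi. Nv-htl, the FGF receptor heartless, had 1.43 and 0.853 FPKM after Toll pRNAi, against 12.7 and 15.8 FPKM in the dpp and gbb1 libraries (-3.55, SE 0.18, adjusted p = 1.95e-05). Nv-stumps, an adaptor that acts downstream of that receptor, had 0.553 and 0.596 FPKM after Toll pRNAi and 7.54 and 7.92 FPKM after BMP pRNAi (-3.79, SE 0.12, adjusted p = 2.35e-06). The receptor and its adaptor thus changed in the same direction by similar amounts, though the difference between them was not tested. The ligand of the list, thisbe, was not paired with a locus and was not analysed here.

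Further transcription factor genes of the ventral list were lower by smaller or larger amounts. Nv-croc, a forkhead gene, had 0.623 and 0.251 FPKM against 7.90 and 7.64 FPKM (-4.17, SE 0.27, adjusted p = 7.17e-05), in Toll pRNAi and BMP pRNAi libraries. Nv-zinc-finger-homeodomain had 0.563 and 0.341 FPKM after Toll pRNAi, against 4.67 and 6.25 FPKM after BMP pRNAi (-3.28, SE 0.21, adjusted p = 6.39e-05). A secreted guidance ligand, netrin, had 1.80 and 1.58 FPKM after Toll pRNAi and 8.40 and 14.3 FPKM in the dpp and gbb1 libraries (-2.29, SE 0.25, adjusted p = 0.00116). In netrin the gbb1 library was the higher of the BMP libraries by 0.81 on the log2 scale. Smaller called changes of the list included those of Nv-inflated, an integrin subunit gene, at -1.37 (SE 0.09, adjusted p = 5.74e-05) and Nv-cg2254 at -1.06 (SE 0.10, adjusted p = 0.000468).

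The ventral genes that did not pass the test were highest in water. Nv-emp, a scavenger receptor homologue, had 18.5 and 20 FPKM after Toll pRNAi, 19.7 and 21 FPKM after BMP pRNAi and 31 and 32.4 FPKM in water (Toll over BMP -0.04, SE 0.08, adjusted p = 0.821). Nv-neprilysin, a metalloprotease homologue, had 5.99 and 5.30 FPKM after Toll pRNAi, 8.29 and 7.09 FPKM after BMP pRNAi and 11.7 and 13.2 FPKM in water (-0.41, SE 0.11, adjusted p = 0.0689, against 0.0366 with DESeq2 and 0.0195 without the gbb1 library). For Nv-emp the libraries of the knockdowns overlapped, and for Nv-neprilysin they did not. The number of ventral genes lower after Toll pRNAi was 15 to 18 when each library in turn was left out.

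**Figure D3:**
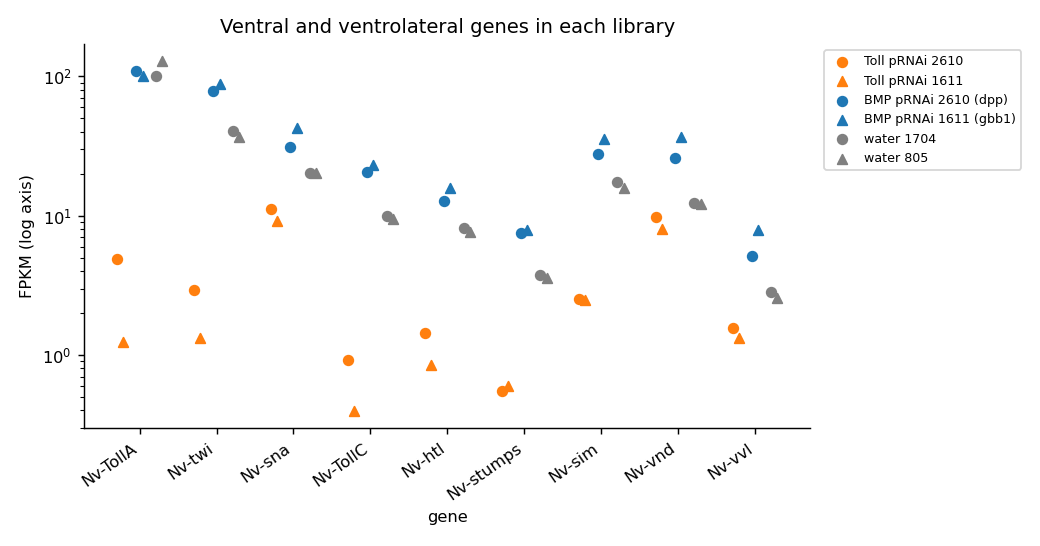
FPKM (log axis) of the Toll receptor genes and of ventral and ventrolateral genes in each of the 6 libraries, with circles and triangles for the 2 libraries of a group. Toll pRNAi libraries (orange) lay below BMP pRNAi libraries (blue) for all 9 genes, for example 2.93 and 1.33 against 79.0 and 87.8 FPKM for Nv-twi, and for all but Nv-TollA the water libraries (grey) lay between them.

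Ventrolateral genes, expressed in the cells next to the mesoderm, were also lower after Toll pRNAi. Of 7 listed genes 5 were paired, and all 5 were lower, with a median of -1.69. Nv-sim (Nasvi2EG014230, scaffold 42, positions 110996 to 135133), the transcription factor single-minded that marks the mesectoderm, had 2.51 and 2.49 FPKM after Toll pRNAi, against 27.7 and 35.7 FPKM in the dpp and gbb1 libraries. Both Toll pRNAi libraries gave the same low level, and the change was 10.8-fold (-3.43, SE 0.14, adjusted p = 5.11e-06). Nv-vnd, a homeobox gene of the ventral column of the neuroectoderm, had 9.76 and 7.98 FPKM after Toll pRNAi and 25.9 and 36.5 FPKM after BMP pRNAi, beside 12.3 and 12.1 FPKM in water (-1.69, SE 0.17, adjusted p = 0.000698). Nv-vvl, a POU-domain transcription factor gene, had 1.55 and 1.32 FPKM after Toll pRNAi against 5.13 and 7.91 FPKM after BMP pRNAi (-2.13, SE 0.20, adjusted p = 0.000496). For Nv-vnd and Nv-vvl, water lay closer to Toll pRNAi than to BMP pRNAi.

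The smallest ventrolateral changes were those of Nv-blistery (-1.56, SE 0.22, adjusted p = 0.00511) and Nv-traf4 (-0.44, SE 0.09, adjusted p = 0.0314). Nv-blistery had 1.09 and 0.988 FPKM after Toll pRNAi and 2.54 and 4.16 FPKM after BMP pRNAi, and missed the threshold without TollA1611 (adjusted p = 0.0533). Nv-traf4, a homologue of a signaling adaptor, depended on the measure. Its fragments numbered 1806 and 2447 after Toll pRNAi and 3407 and 3763 after BMP pRNAi, while mean FPKM gave a log2 ratio of -1.17. In a fit of the Toll and BMP pRNAi libraries alone Nv-traf4 was not called (adjusted p = 0.062, edgeR). It was not called without TollA2610 (adjusted p = 0.27), without the water library h2o1704 (adjusted p = 0.0674) or without the water library h2o805 (adjusted p = 0.0686). In all 5 ventrolateral genes the gbb1 library was above the dpp library by log2 CPM, by a median of 0.52. For Nv-traf4 that gap was only -0.03 (dpp minus gbb1), and by FPKM its dpp library was the higher, with 33.7 against 31.3 FPKM.

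Genes expressed everywhere but in the mesoderm went the other way, and all 3 of them were higher after Toll pRNAi. Nv-stardust, a scaffold protein of the apical membrane, had 48.1 and 45.5 FPKM after Toll pRNAi and 23.4 and 28 FPKM after BMP pRNAi (0.91, SE 0.10, adjusted p = 0.00138). Nv-mew, an integrin subunit, had 11.7 and 12.0 FPKM against 4.80 and 6.35 FPKM (1.10, SE 0.11, adjusted p = 0.00077). Nv-echinus, a homologue of a fly gene placed here among the EGF pathway genes, had 34.9 and 37.3 FPKM after Toll pRNAi and 15.7 and 18.8 FPKM after BMP pRNAi (1.10, SE 0.11, adjusted p = 0.000613). In each of the 3 genes the Toll pRNAi libraries were near each other and the dpp library was the lowest. Nv-echinus was the only EGF pathway member of 4 listed that was paired.

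Genes with broad lateral domains, between the mesoderm and the extraembryonic region, changed by moderate amounts. Of 22 genes, all of them paired and tested, 18 were higher and 1 lower after Toll pRNAi, and the median fold change was 0.94. TFIIF1, a homologue of a general transcription factor subunit, had 161 and 170.4 FPKM after Toll pRNAi, against 44.6 and 41.0 FPKM in the dpp and gbb1 libraries. Its change of 1.99 (SE 0.08, adjusted p = 5.11e-06) was the largest increase of the list, and water lay between the knockdowns at 86.0 and 89.6 FPKM. Nasvi2EG001594, a gene with ankyrin repeats, had 25.1 and 20.6 FPKM after Toll pRNAi and 8.83 and 6.80 FPKM after BMP pRNAi (1.59, SE 0.14, adjusted p = 0.000388). Nasvi2EG019897, a gene without a known function, had 21.2 and 19.0 FPKM after Toll pRNAi and 6.55 and 7.46 FPKM after BMP pRNAi (1.58, SE 0.09, adjusted p = 4.21e-05). Nasvi2EG004843 followed, with 16 and 12.1 FPKM after Toll pRNAi and 4.89 and 5.21 FPKM after BMP pRNAi (1.51, SE 0.15, adjusted p = 0.000617). These 4 genes were 2.85-fold to 3.98-fold higher after Toll pRNAi, and their libraries did not overlap.

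Neural and cell-surface genes of the broad lateral list had smaller changes. The proneural gene achaete-scute had 22.5 and 21.0 FPKM after Toll pRNAi and 9.48 and 11.1 FPKM after BMP pRNAi (1.12, SE 0.12, adjusted p = 0.000895). The pan-neural factor sox-neuro, whose locus joins 4 gene identifiers, had 80.5 and 65.9 FPKM after Toll pRNAi and 27.9 and 39.1 FPKM after BMP pRNAi (1.15, SE 0.14, adjusted p = 0.00189). Both had higher levels in the gbb1 than in the dpp library. The apical polarity determinant crumbs had 23.4 and 22.8 FPKM after Toll pRNAi and 10.6 and 13.6 FPKM after BMP pRNAi (0.98, SE 0.12, adjusted p = 0.00259). Its binding partner of the apical membrane, stardust, is the gene described above, with a fold change of 0.91. The dpp library was below the gbb1 library in 16 of the 22 broad lateral genes.

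The 1 broad lateral gene that was lower after Toll pRNAi was Nv-CG42249, listed among the catalytic enzymes. Its fragments numbered 11 and 6 in the Toll pRNAi libraries, against 146 and 145 in the BMP pRNAi libraries and 60 and 63 in water (-3.75, SE 0.31, adjusted p = 0.000276). With so few fragments after Toll pRNAi its size is less certain than that of the other genes, and its locus joins 2 identifiers. The broad lateral genes that did not pass the test had BMP pRNAi libraries that lay apart. CG14438 had 55.3 and 56.9 FPKM after Toll pRNAi, 30.9 FPKM in the dpp library and 48.7 FPKM in the gbb1 library (0.52, SE 0.18, adjusted p = 0.139, and 0.0287 with DESeq2). Nasvi2EG014440 had 36.1 and 38.6 FPKM after Toll pRNAi, 16.1 FPKM in the dpp library and 32.0 FPKM in the gbb1 library (0.67, SE 0.26, adjusted p = 0.176). Without the gbb1 library both were called, at an adjusted p of 0.00174 for CG14438 and 0.000965 for Nasvi2EG014440. Nasvi2EG019917 had 3.62 and 2.44 FPKM after Toll pRNAi and 6.20 and 3.42 FPKM after BMP pRNAi, with overlapping libraries (-0.58, SE 0.41, adjusted p = 0.416). In place of 18, 11 genes were higher without TollA1611 and 12 without TollA2610, and 11 to 19 over all libraries left out in turn.

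The genes that the study's list groups as dorsolateral showed the largest positive median. The study's text describes some of them as more dorsal, with tailup in narrow stripes along the dorsal midline and Nv-omb and Nv-cv2 among dorsally expressed genes. Of those its text calls dorsolateral, Nv-msh, Nv-disco and CG14692 changed by 2.06, 3.38 and 1.56. All 8 listed genes were paired, all 8 were higher after Toll pRNAi, and the median was 2.65. Nv-omb (Nasvi2EG009552, scaffold 18, positions 2061061 to 2130281), a T-box transcription factor gene that is a BMP target in flies, had 9.83 and 9.70 FPKM after Toll pRNAi, against 0.442 and 0.407 FPKM in the dpp and gbb1 libraries. The change was 21.8-fold (4.44, SE 0.12, adjusted p = 2.01e-06), and water was at 6.20 and 5.56 FPKM. Nv-cv2 (Nasvi2EG009091, scaffold 17, positions 954957 to 982562), the crossveinless-2 gene for a BMP-binding protein, had 5.10 and 4.56 FPKM after Toll pRNAi and 0.399 and 0.315 FPKM after BMP pRNAi (3.79, SE 0.16, adjusted p = 5.11e-06). Nv-disco, a zinc-finger transcription factor gene, had 10.5 and 8.72 FPKM after Toll pRNAi and 0.963 and 0.962 FPKM after BMP pRNAi (3.38, SE 0.16, adjusted p = 9.45e-06). For Nv-omb, Nv-cv2 and Nv-disco the dpp and gbb1 libraries were close to each other and far below all others.

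The GATA factor gene pannier, which is a dorsal BMP target in flies, had 7.14 and 7.88 FPKM after Toll pRNAi and 0.742 and 0.810 FPKM after BMP pRNAi (3.24, SE 0.13, adjusted p = 5.11e-06). Nv-msh, a homeobox gene of the dorsal column of the neuroectoderm, had 15.9 and 14.8 FPKM after Toll pRNAi and 3.87 and 3.30 FPKM after BMP pRNAi (2.06, SE 0.11, adjusted p = 2.93e-05). For pannier the Toll pRNAi libraries were at the level of water (7.14 and 5.95 FPKM), while for Nv-msh they stood above it (10.1 and 9.56 FPKM). The LIM-homeodomain gene tailup, an extraembryonic marker in flies, had 3.19 and 3.53 FPKM after Toll pRNAi and 0.939 and 1.08 FPKM after BMP pRNAi (1.77, SE 0.14, adjusted p = 0.00025). All 8 genes were called whichever library was left out.

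**Figure D4:**
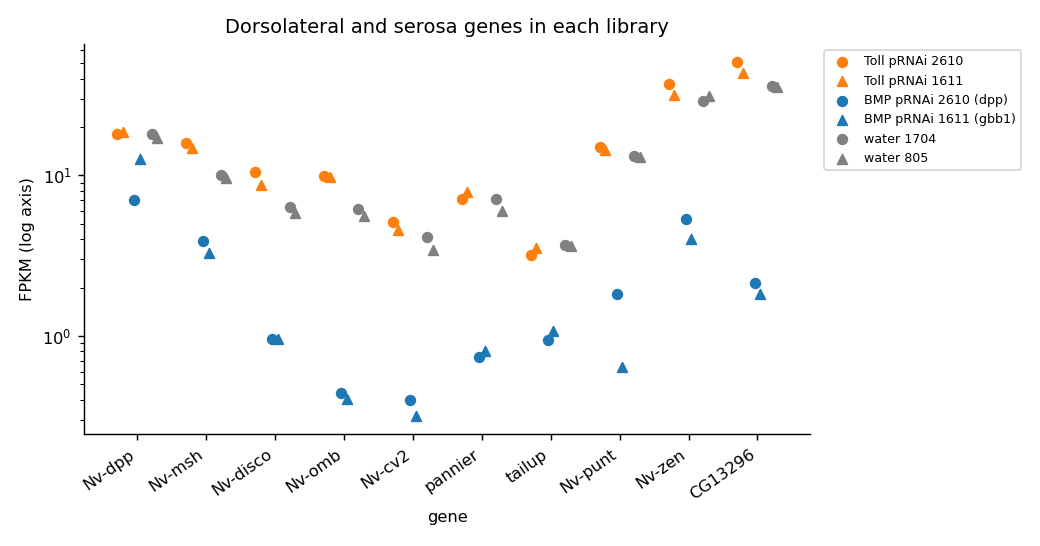
FPKM (log axis) of Nv-dpp and of dorsolateral and serosa genes in each of the 6 libraries, drawn as for the ventral genes. For all 10 genes both Toll pRNAi libraries (orange) lay above both BMP pRNAi libraries (blue), for example CG13296 with 50.9 and 43.3 against 2.13 and 1.83 FPKM.

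Serosa genes formed the largest list, with 31 entries, of which 28 were paired and tested. Of these 27 were higher after Toll pRNAi and 1 did not pass, and the median was 1.69. CG13296 (Nasvi2EG010535), listed as a transcription factor gene by the study, had 50.9 and 43.3 FPKM after Toll pRNAi, against 2.13 and 1.83 FPKM in the dpp and gbb1 libraries. At 24.7-fold (4.63, SE 0.15, adjusted p = 2.35e-06) it had the largest increase of the patterned genes. Nv-mucin68d, a mucin gene, had 13.0 and 8.73 FPKM after Toll pRNAi and 1.0 and 0.457 FPKM after BMP pRNAi (3.91, SE 0.30, adjusted p = 0.000173). Nv-sp67, a serine protease gene, had 3.91 FPKM in both Toll pRNAi libraries and 0.312 and 0.485 FPKM after BMP pRNAi (3.25, SE 0.22, adjusted p = 8.21e-05). For CG13296, Nv-mucin68d and Nv-sp67 both BMP pRNAi libraries were far below all others.

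Nv-zen (Nasvi2EG011090, scaffold 23, positions 1683599 to 1687128), the homeobox gene that specifies extraembryonic fate in insects, had 37.2 and 31.6 FPKM after Toll pRNAi and 5.36 and 4.01 FPKM after BMP pRNAi. The change was 7.38-fold (2.88, SE 0.13, adjusted p = 9.15e-06), and water was at 28.9 and 31.1 FPKM. The T-box gene dorsocross, another extraembryonic marker, had 35.1 and 36.2 FPKM after Toll pRNAi and 10.7 and 12.4 FPKM after BMP pRNAi (1.69, SE 0.10, adjusted p = 5.01e-05). Nv-uif, the Notch pathway gene uninflatable, had 13.7 and 14.4 FPKM after Toll pRNAi and 2.50 and 2.79 FPKM after BMP pRNAi (2.45, SE 0.09, adjusted p = 2.85e-06). Nasvi2EG013778, a serosa gene of unknown function, was the most abundant gene of the list, with 321 and 319 FPKM after Toll pRNAi and 79.2 and 73.3 FPKM after BMP pRNAi (2.11, SE 0.08, adjusted p = 3.88e-06). For each of these genes the libraries of a knockdown lay close together.

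The 1 serosa gene that did not pass was Nasvi2EG019528, with 105 and 84.5 FPKM after Toll pRNAi, 49.7 FPKM in the dpp library and 95.4 FPKM in the gbb1 library. Its libraries overlapped (0.42, SE 0.26, adjusted p = 0.347), and it was called without the gbb1 library (adjusted p = 0.00227). CG4702 had BMP pRNAi libraries that differed widely from each other, with 4.57 and 3.39 FPKM after Toll pRNAi against 1.17 FPKM in the dpp library and 0.463 FPKM in the gbb1 library (2.28, SE 0.39, adjusted p = 0.0111). It missed the threshold without TollA2610 (2.03, adjusted p = 0.0888). With each library left out in turn, 24 to 28 serosa genes were higher.

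The BMP pathway was described as a list of its own. Only 8 of its 17 genes were paired, all 8 were higher after Toll pRNAi, and 7 of the 8 are also patterned genes, so this is not a count over the whole pathway. Among the receptors, Nv-punt (Nasvi2EG009567, scaffold 18, positions 2273878 to 2276722), a type II receptor gene, had 15.0 and 14.3 FPKM after Toll pRNAi, against 1.82 FPKM in the dpp library and 0.641 FPKM in the gbb1 library (3.64, SE 0.32, adjusted p = 0.000397). It was lower still in the gbb1 library, by 1.44 on the log2 scale. Among extracellular modulators, Nv-tsg2, a twisted-gastrulation homologue with a broad dorsal domain, had 78.7 and 79.5 FPKM after Toll pRNAi and 26.2 and 23.5 FPKM after BMP pRNAi (1.72, SE 0.08, adjusted p = 9.15e-06). Nv-cv2, given above, had the largest change of the modulators, and Nv-ltl, the homologue of the fly gene larval translucida, the smallest, with 5.43 and 5.26 FPKM after Toll pRNAi and 3.27 and 3.36 FPKM after BMP pRNAi (0.76, SE 0.09, adjusted p = 0.00228). Of the intracellular transducers, Nv-mad2, a homologue of Mad, had 15.8 and 15.3 FPKM after Toll pRNAi and 9.23 and 9.27 FPKM after BMP pRNAi (0.79, SE 0.09, adjusted p = 0.00121). The transcription factor genes of the list, Nv-omb and pannier, and the ligand gene Nv-dpp are described above.

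Genes of the neuroectoderm did not share a direction. Of 7 listed genes 5 were paired and all 5 passed the test. All 5 are also patterned genes, which the study chose for changes in these libraries. That count is therefore a description, beside 198 called of the 504 paired loci tested and 6.89% of all loci tested. The ventral column gene Nv-vnd and the midline gene Nv-sim were lower after Toll pRNAi, at -1.69 and -3.43. The dorsal column gene Nv-msh was higher at 2.06, and the genes with broad lateral domains, achaete-scute and sox-neuro, were higher at 1.12 and 1.15. The intermediate column gene ind was not paired with a locus and was not analysed here.

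Genes with a pattern along the anteroposterior axis, rather than the DV axis, were higher after Toll pRNAi in 10 of 10 cases, with a median of 1.36. Nv-toy, a Pax6 homologue, had 1026 and 1250 fragments after Toll pRNAi, against 141 and 145 fragments in the dpp and gbb1 libraries and 432 and 507 in water. Its fold change was 3.31 (SE 0.11, adjusted p = 2.35e-06), while mean FPKM gave a log2 ratio of 4.59. Nv-tailless, a nuclear receptor gene of the embryonic poles, had 23 and 19.5 FPKM after Toll pRNAi and 3.74 and 2.29 FPKM after BMP pRNAi (2.80, SE 0.21, adjusted p = 0.000139). Its water libraries, at 23.1 and 24.7 FPKM, were at the level of Toll pRNAi. The 2 neighbouring orthodenticle genes, homeobox genes of the head, differed in size of change. Nasvi2EG014291 had 12.2 and 8.53 FPKM after Toll pRNAi and 2.56 and 1.98 FPKM after BMP pRNAi (2.21, SE 0.18, adjusted p = 0.00025). Nasvi2EG014289 had 67.5 and 69.7 FPKM after Toll pRNAi and 35.8 and 33.2 FPKM after BMP pRNAi (1.0, SE 0.07, adjusted p = 0.000139). As copies of one gene family they can share reads, which the counting could split.

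Among the other anteroposterior genes, Nasvi2EG022697, a gene with ankyrin repeats, had 13.3 and 12.0 FPKM after Toll pRNAi and 4.32 and 3.09 FPKM after BMP pRNAi (1.81, SE 0.17, adjusted p = 0.000521). Nv-homeobrain, a head homeobox gene, had the smallest change, with 42 and 38.6 FPKM after Toll pRNAi and 26 and 22.2 FPKM after BMP pRNAi (0.52, SE 0.09, adjusted p = 0.0101). Both knockdowns lay below water for Nv-homeobrain (61.6 and 58.9 FPKM). It was not called without TollA1611 (adjusted p = 0.0882) or without TollA2610 (adjusted p = 0.116).

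Genes of the germline list served as markers of primordial germ cells. Of 5 listed genes 4 were paired, and 0 of them passed edgeR's test. An unadjusted p under 0.05 was found for 2 of the 4, and DESeq2 called 1, Nv-jafrac. Nv-jafrac, a peroxiredoxin homologue, had 53.1 and 57.1 FPKM after Toll pRNAi and 105 and 79.1 FPKM after BMP pRNAi (-0.69, SE 0.19, adjusted p = 0.0728). It was called without the gbb1 library (adjusted p = 0.0194), without the water library h2o1704 (adjusted p = 0.0378) or without h2o805 (adjusted p = 0.0393). The 2 heat-shock protein genes had 52.1 and 35.6 FPKM after Toll pRNAi against 91.8 and 58.1 FPKM after BMP pRNAi (Nasvi2EG008139, -0.73, SE 0.25, adjusted p = 0.125, and 0.0172 without the gbb1 library), and 9.81 and 9.74 FPKM against 22.3 and 10.1 FPKM (Nasvi2EG008141, -0.68, SE 0.43, adjusted p = 0.366). Nv-gapdh, a glycolytic enzyme gene, had 16.2 and 14.0 FPKM after Toll pRNAi and 26.7 and 13.9 FPKM after BMP pRNAi (-0.38, SE 0.35, adjusted p = 0.531). In all 4 the dpp library was above the gbb1 library, by a median of 0.77 on the log2 scale, and the water libraries also differed, with 20.2 and 40.4 FPKM for Nv-gapdh. The part of germ cell number in other differences between the libraries was not tested.

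In 2 further lists, broad dorsal and complex patterns, 1 of 2 genes each was called, Nv-tsg2 (described above) and slit. The secreted guidance ligand slit, with a complex pattern, had 3.54 and 3.11 FPKM after Toll pRNAi and 0.996 and 1.24 FPKM after BMP pRNAi (1.55, SE 0.14, adjusted p = 0.000535). Nasvi2EG010608, the other gene with a complex pattern, had 0.839 and 1.11 FPKM after Toll pRNAi, 2.77 FPKM in the dpp library, 6.18 FPKM in the gbb1 library, and 9.28 and 1.24 FPKM in water (-2.16, SE 0.87, adjusted p = 0.179). It was called without the water library h2o1704 (adjusted p = 0.0397) or without h2o805 (adjusted p = 0.0414). The broad dorsal gene Nasvi2EG029763 had 12.9 and 17.9 FPKM after Toll pRNAi, 22.2 FPKM in the dpp library, 75.2 FPKM in the gbb1 library, and 48.8 and 12.4 FPKM in water (-1.61, SE 0.65, adjusted p = 0.179). For Nasvi2EG010608 and Nasvi2EG029763 the water libraries lay far apart, and so did the BMP pRNAi libraries.

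The ankyrin domain genes of the patterned list, a family with many copies in the wasp, were looked at across territories after their values had been seen. They too were chosen by the study for changes in these libraries, so their count is a description. After Toll pRNAi 65.7% of all 102 patterned genes were higher and 22.5% lower. Over all loci tested these shares were 5.83% and 1.06%. Of the 10 ankyrin genes 9 were higher, and 1 was lower. The lower one was the ventral gene Nasvi2EG004500, with 2.17 and 1.82 FPKM after Toll pRNAi and 35.9 and 25.9 FPKM after BMP pRNAi (-3.91, SE 0.17, adjusted p = 7.4e-06). The serosa gene Nasvi2EG002650 had the largest increase of the family, with 18.9 and 16.2 FPKM after Toll pRNAi and 5.37 and 3.69 FPKM after BMP pRNAi (2.00, SE 0.18, adjusted p = 0.000422). The family has many similar copies, so fragments may have been divided between them, and single values are uncertain. The dorsolateral gene Nasvi2EG001522 had 18.9 and 19.0 FPKM after Toll pRNAi and 8.05 and 5.23 FPKM after BMP pRNAi (1.55, SE 0.18, adjusted p = 0.00159). The dpp library was above the gbb1 library in 9 of the 10 ankyrin genes, beside 51.0% of all loci, and Nasvi2EG006715 was the exception (-0.01, dpp minus gbb1).

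**Figure D5:**
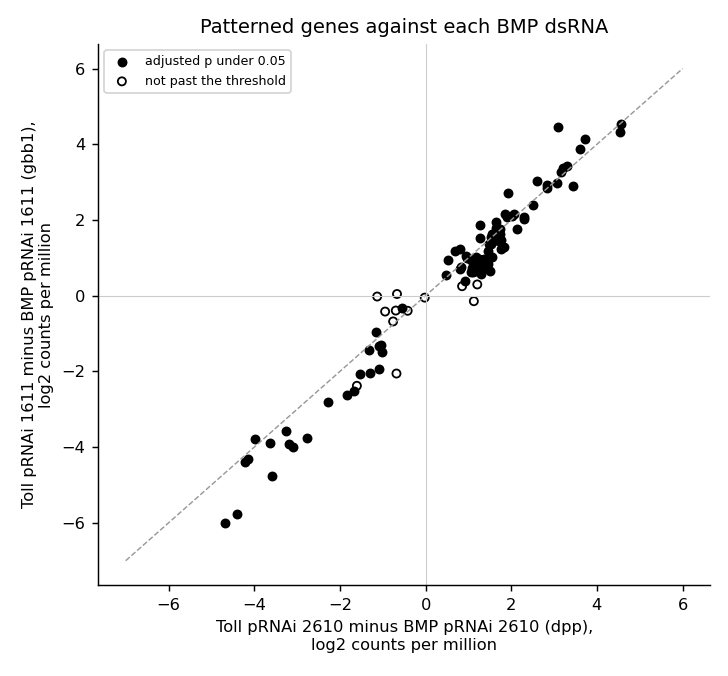
Difference of log2 CPM between the Toll pRNAi and BMP pRNAi libraries that share a title number, for each of the 102 patterned genes, with the dpp target on the horizontal and the gbb1 target on the vertical axis. Filled points passed an adjusted p of 0.05, the dashed line marks equal differences, and 100 of the 102 genes, which the study chose for changes in these libraries, had the same sign on both axes, as had 70.7% of all loci tested.

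The BMP pRNAi libraries were then set beside each other, as a description, because each target has only 1 library. Across the 102 patterned genes the 2 Toll pRNAi libraries differed by a median of 0.14 on the log2 CPM scale, and the dpp and gbb1 libraries by 0.30. Over all loci tested these medians were 0.10 for the Toll pRNAi and 0.19 for the BMP pRNAi libraries. A gap above 1 on the log2 scale was found for 3 patterned genes between the Toll pRNAi libraries and for 7 between the dpp and gbb1 libraries. By the rule for naming genes, the 5 widest gaps between the dpp and gbb1 libraries were those of Nasvi2EG029763 (-1.74, dpp minus gbb1), Nv-punt (1.44), CG4702 (1.23), Nasvi2EG010608 (-1.16) and the heat-shock gene Nasvi2EG008141 (1.12). By log2 CPM the gbb1 library was higher than the dpp library in 13 of 19 ventral, 5 of 5 ventrolateral and 16 of 22 broad lateral genes. Among these the gap of Nv-traf4 was only -0.03, dpp minus gbb1. The gbb1 library was higher in 3 of 8 dorsolateral and 14 of 28 serosa genes, beside 48.9% of all loci. Between the Toll pRNAi libraries, TollA2610 was higher in 12 of 19 ventral and 22 of 28 serosa genes but in 2 of 8 dorsolateral genes, beside 50.6% of all loci. In Nv-TollA itself, TollA2610 retained 4.92 FPKM and TollA1611 1.23 FPKM, and Nv-twi, Nv-TollC and Nv-croc were likewise higher in TollA2610. The part of the remaining Nv-TollA transcript in these gaps was not tested.

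Loci outside the patterned list were named by size of change. Only 156 of the 597 higher and 42 of the 109 lower called loci had a paired identifier, so most called loci could not be named. The largest called increase over all loci was 6.67 on the log2 scale. Among called loci with a paired identifier, a mean above 3 FPKM in the higher group and no overlap of libraries, 75 were higher and 13 lower after Toll pRNAi. Of these, Nasvi2EG005014 had the largest increase, with 3.25 and 3.24 FPKM after Toll pRNAi against 0.561 and 0.510 FPKM after BMP pRNAi (2.78, SE 0.16, adjusted p = 4.21e-05). Next in order were Nasvi2EG023085, Nasvi2EG014030 and Nasvi2EG035038, all at 1.70. Nasvi2EG035038, the most abundant of those at 1.70, had 22.9 and 18.1 FPKM after Toll pRNAi and 6.54 and 6.38 FPKM after BMP pRNAi (SE 0.13, adjusted p = 0.000209). These identifiers carry no gene name in the tables used here. The rest of the 8 largest increases, Nasvi2EG015069, Nasvi2EG008982, Nasvi2EG000285 and Nasvi2EG025947, ranged between fold changes of 1.57 and 1.45. The most abundant of them, Nasvi2EG000285, averaged 145 FPKM after Toll pRNAi and 53.6 FPKM after BMP pRNAi.

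Of the 8 largest decreases outside the list by the same rule, the first was Nv-TollA itself. The second, Nasvi2EG002903, had 0.858 and 0.932 FPKM after Toll pRNAi and 3.13 and 2.99 FPKM after BMP pRNAi (-1.61, SE 0.13, adjusted p = 0.000252). Water was at 2.62 and 2.93 FPKM, near BMP pRNAi. The locus that joins Nasvi2EG007153 and Nasvi2EG007155 had 3.33 and 4.11 FPKM after Toll pRNAi and 10.5 and 13.1 FPKM after BMP pRNAi (-1.60, SE 0.16, adjusted p = 0.000674). Nasvi2EG010527 had 89.3 and 80.9 FPKM after Toll pRNAi, 238 FPKM in the dpp library, 158 FPKM in the gbb1 library and 75.8 and 98.2 FPKM in water (-1.18, SE 0.19, adjusted p = 0.00822). For Nasvi2EG010527 the dpp library stood highest and Toll pRNAi was at the level of water, and the call was lost without TollA2610 (adjusted p = 0.0626) or TollA1611 (adjusted p = 0.0791). The others were Nasvi2EG024989, the locus of Nasvi2EG010653 and Nasvi2EG010655, Nasvi2EG022099 and Nasvi2EG006406, at -1.21, -1.13, -1.09 and -0.93. The call for Nasvi2EG006406 was lost without TollA2610 (adjusted p = 0.0689) or TollA1611 (adjusted p = 0.0692).

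The lowest fitted fold change of all 10241 loci belonged to Nasvi2EG000293, which was named after its values were seen, since its level did not reach the minimum of that rule. It had 0.0170 and 0.0301 FPKM after Toll pRNAi and 1.31 and 1.54 FPKM after BMP pRNAi (-5.75, SE 0.39, adjusted p = 9.86e-05). These levels stand for 1 and 2 fragments after Toll pRNAi and 95 and 123 fragments after BMP pRNAi, so the fitted size depends on the prior count. The ratio of fragments, BMP pRNAi over Toll pRNAi and scaled to library totals, was 60.5 with an exact 95% interval of 20.4 to 296 for counting error only. The locus lies on scaffold 1, positions 2158040 to 2160387, with 11.6 kb between it and Nv-twi, the patterned gene with the lowest fold change. Nasvi2EG005296, also named after its values were seen, lies 55 bases from Nv-TollC on scaffold 8, positions 459620 to 462424. It had 0.0828 and 0.0433 FPKM after Toll pRNAi and 0.596 and 1.53 FPKM after BMP pRNAi (-3.90, SE 0.57, adjusted p = 0.00575), a call lost without TollA1611 (adjusted p = 0.0608). At 55 bases, reads of Nv-TollC and of its neighbour may not be fully separated.

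Orthologues of fly genes with DV expression were counted by their territory in the fly. Of 212 listed identifiers 32 were paired and 29 tested, of which 16 were higher and 9 lower after Toll pRNAi. Among all 504 paired loci tested, 156 were higher and 42 lower, beside 5.83% and 1.06% of all loci tested. The fly mesoderm list had 6 lower genes and 1 higher gene of 7 tested, and the higher one was Nv-ltl, which is expressed in the serosa of the wasp. Of 6 tested genes of the fly extraembryonic list 5 were higher. Most of these are patterned genes given above, and 20 of the 29 tested were on that list, so the counts are not independent of it. Of the 9 tested genes that were not, 5 were higher and 4 were not called. These 9 were paired through the same study table, which begins with loci that passed the study's own tests. They too are therefore not independent of these data. Ptr, a Patched-related gene, had 1.59 and 1.32 FPKM after Toll pRNAi and 0.503 and 0.515 FPKM after BMP pRNAi (1.34, SE 0.19, adjusted p = 0.00491). The zinc-finger gene peb had 59.1 and 69.0 FPKM after Toll pRNAi and 37.1 and 45.2 FPKM after BMP pRNAi (0.66, SE 0.11, adjusted p = 0.0123), a call lost without TollA1611 (adjusted p = 0.136). For Ptr and peb both Toll pRNAi libraries were above both BMP pRNAi libraries, and the locus of each joins 2 gene identifiers. The zinc-finger gene noc had 33.6 and 33.3 FPKM after Toll pRNAi and 21.4 and 22.1 FPKM after BMP pRNAi (0.66, SE 0.10, adjusted p = 0.0075). The call for noc was lost without TollA1611 (adjusted p = 0.0609) or TollA2610 (adjusted p = 0.0765). ASPP had 10.7 and 10.9 FPKM after Toll pRNAi and 5.17 and 7.17 FPKM after BMP pRNAi (0.83, SE 0.13, adjusted p = 0.0085), and lost its call without TollA1611 (adjusted p = 0.0725). The fifth was Nv-dpp. The 4 genes not called were LManV (-0.21), mspo (-0.40), CG5002 (0.10) and nAChRα2 (0.04).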

How the data were processed

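Embryos of 4 to 7 h were sequenced by the authors as paired-end, poly-A selected RNA in 6 libraries. The authors aligned reads with TopHat2 (2.0.3) to assembly 1.0 with annotation 2.0 and quantified loci with Cufflinks (2.0.2) and Cuffdiff, with reads that map to several places divided by its multi-read correction. The deposited estimated counts are fragments per locus and library before scaling, and they were rounded to whole numbers. The deposited FPKM values were scaled between libraries by the authors' Cuffdiff run and are given as levels. Of 20033 loci, 198 had a failed quantification in at least 1 library, and 162 of these were tested. The pooled count table was not used, and 0 columns lacked a sample.

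Tests used edgeR (4.0.16, R 4.3.3) with the quasi-likelihood test, TMM scaling, its expression filter and all 6 libraries in 1 fit (residual degrees of freedom 3, common biological coefficient of variation 0.0953), with Benjamini-Hochberg adjustment over 10241 loci and a threshold of 0.05. The SE is the fold change divided by the root of F. Labels do not say that libraries of a group are more than separate pools, so p-values measure the spread between pools. In both knockdown groups the pools also differ in dsRNA, so that spread includes differences between dsRNAs or their targets. An exact permutation test of 2 against 2 cannot go below p = 0.333. Fits were tested on simulated data. Alternatives were DESeq2 (1.42.0), limma (3.58.1) on log2(FPKM + 1) or log2(FPKM + 0.1), other filters and scaling, fewer libraries, a replicate block and, added after the data were seen, leaving out failed loci.

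Identifiers were paired with 1799 loci through part of a study table. Named genes were the dsRNA targets, up to 4 genes per territory with the largest change, those called against their territory or not called, called members of pathway and fly lists, the 8 largest changes per direction among other paired loci above 3 FPKM, and the 5 widest gaps between dpp and gbb1. Other members of the lists served as examples. Members and lists were chosen with earlier results of these data known.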

Additional observations from a re-analysis of the deposited data

How the results depend on the processing

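With each library left out in turn, loci higher after Toll pRNAi numbered 180 to 1231 and lower ones 37 to 814, and patterned genes numbered 57 to 69 higher and 20 to 26 lower. Without the filter on low counts 1036 loci were higher and 605 lower. With limma 318 loci were higher on log2(FPKM + 1) and 320 on log2(FPKM + 0.1). Without a filter limma gave 125 higher and 40 lower loci and 44 higher patterned genes. DESeq2 called 169 loci lower. Without loci that hold more than 1 identifier, 15 patterned genes were lower. The cause of these shifts was not tested, except that the last setting tests fewer genes. No result reversed. Of 90 called patterned genes, 61 were called under every alternative that gave a value.

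Toll and BMP libraries share title numbers, but no label says what the numbers mark. With the title number as a replicate block, 1005 loci were higher and 364 lower, and 9 named genes gained a call and 0 lost one. Those 9 were the germline genes Nv-jafrac, Nasvi2EG008139 and Nasvi2EG008141, and Nv-neprilysin, CG14438, Nasvi2EG014440, Nasvi2EG019917, Nasvi2EG010608 and Nasvi2EG029763. Deviations of same-numbered libraries correlated at 0.127 over 7007 loci, from 2 pairs. Depth limits values that rest on few fragments, such as 1 and 2 for Nasvi2EG000293 after Toll pRNAi.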

Other observations

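Among the patterned genes, 35 transcription factor genes were tested, of which 25 were higher and 9 lower after Toll pRNAi. Of 16 genes for membrane proteins 11 were higher and 5 lower. These counts are near the shares of all 102 patterned genes, of which 65.7% were higher and 22.5% lower. The 3 genes for ligands were all called, slit higher and netrin and Nv-meteorin lower. The call for Nv-meteorin was lost without TollA2610 (adjusted p = 0.0568).

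A pair of loci on scaffold 9, named after their values were seen, was abundant in 1 library. Nasvi2EG005690 had 3.54 FPKM in TollA2610 and 0.0166 FPKM in TollA1611, against 0.0303 and 0.0138 FPKM in the dpp and gbb1 libraries. Nasvi2EG005695 had 3.35 FPKM in TollA2610 and was listed at 0 in TollA1611 and in both BMP pRNAi libraries. In water, h2o1704 was at 0 for both loci and h2o805 had 0.258 FPKM for Nasvi2EG005690 and 0.375 FPKM for Nasvi2EG005695. Neither passed the test (adjusted p = 0.111 for Nasvi2EG005690 and 0.141 for Nasvi2EG005695, edgeR). In TollA2610 and TollA1611 the fragments numbered 189 and 1 for Nasvi2EG005690, and 102 and 0 for Nasvi2EG005695. Without TollA1611 the fold changes were 7.26 for Nasvi2EG005690 and 9.91 for Nasvi2EG005695. That fit leaves out the Toll pRNAi library that lacked both transcripts, so it cannot show that the difference repeats. Without the filter on low counts both were called (edgeR, adjusted p = 1.4e-38 for Nasvi2EG005690 and 3.43e-25 for Nasvi2EG005695). That setting also raised the called loci from 597 to 1036 higher and from 109 to 605 lower. In each fit the difference between the knockdowns rests on TollA2610 alone.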
